A study of Rattus norvegicus with 20 samples.

Results

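Histones are the proteins that package DNA, and the genes described here are all entries of the deposited expression table whose protein name begins with histone H1, H2A, H2B, H3 or H4. That rule matched 55 of the 15503 genes in the table. Of these, 2 are not histones but carry the word in their name (Mysm1, a deubiquitinase that acts on histone H2A, and Hinfp, a transcription factor of H4 genes), which left 53 histone genes. By protein name, 36 were replication-dependent histones and 17 were variant histones. The replication-dependent entries comprised 5 linker histones H1, 6 H2A, 10 H2B, 7 H3 and 8 H4. The variants comprised 3 linker histones (H1.0, H1t and H1x), H2A.J, H2AX, 5 entries of the H2A.Z type, the centromeric histone CENP-A, and 6 entries named H3.3 or H3.3C.

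The study cultured neonatal rat cardiomyocytes, heart muscle cells isolated from newborn rats, for 72 h with both histidine at 100 nM and doxorubicin at 1 µM, with doxorubicin alone, with histidine alone, or with phosphate-buffered saline (PBS). Each condition had 5 libraries, 20 in all, and no genotype or engineered allele was named for any group. Doxorubicin is an anthracycline that traps topoisomerase II on DNA and breaks it, and histidine is an amino acid. The labels do not say whether the 5 libraries of a group came from separate cultures or animals, so the p-values measure the spread between these libraries.

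In dividing cells the replication-dependent histone genes, most of which lie in clusters and lack introns, are transcribed in S phase, and their mRNAs end in a conserved stem-loop instead of a poly(A) tail. The stem-loop binding protein SLBP and the U7 snRNP direct that 3' end. Most variant histones are encoded by genes with polyadenylated mRNAs that do not depend on S phase, although Cenpa is expressed late in the cell cycle and H2ax mRNA is made in both stem-loop and polyadenylated forms. Polyadenylated forms of replication-dependent histone mRNAs are known from differentiated and non-dividing cells. Here RNA was captured on oligo(dT) beads, which select the polyadenylated part of replication-dependent histone RNA. The stem-loop form was not measured on its own. Gene counts do not show the 3' end, so any stem-loop RNA carried along cannot be told apart.

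Total counts ran from 53246205 to 83624651 per library. On the leading principal components the libraries separated by doxorubicin, and doxorubicin replicate 4 stood apart from the other libraries, with a score of 107.95 on the second component against -18.95 to 9.03. It was the highest of the 5 doxorubicin libraries for 14 of the 17 variant histones, with a median ratio of 2.21 to the mean of the other 4, and for 17 of the 36 replication-dependent ones, with a median ratio of 1.07. Where a call, a direction or a fold by over 1.5 times in doxorubicin against PBS turns on this library, the value without it is given as well. The 4 groups share a single fit, so this library also enters the SE of both compounds against histidine. That comparison was not fitted again with this library alone left out. The labelled cell type was checked against its markers: 11 of 12 cardiomyocyte markers were measured, and their summed level was 185 to 209.7 CPM with both compounds, 169.6 to 285 CPM with doxorubicin, 913 to 1076 CPM with histidine and 1012 to 1148 CPM in PBS (CPM, counts scaled to library size with TMM factors). In PBS the summed levels of fibroblast markers (74623 to 82043 CPM), smooth muscle and pericyte markers (7499 to 8793 CPM) and leukocyte markers (2309 to 2380.2 CPM) were higher than that of the cardiomyocyte markers. The lists hold different genes, and by these markers the cultures were not cardiomyocytes alone.

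In the RNA captured on oligo(dT), replication-dependent histones were higher in doxorubicin than in PBS. Summed over the 36 genes, their level was 1072, 1146, 1049, 1347 and 1056 CPM in the 5 doxorubicin libraries, against 682, 660.4, 619, 643 and 652 CPM in the 5 PBS libraries. The groups did not overlap, and the ratio of their means was 1.74 (1.66 without doxorubicin replicate 4). The sum was 1119, 1176, 1084, 1166 and 1143 CPM with both compounds, against 612, 633, 596, 631 and 627 CPM with histidine, and this ratio was 1.84. In FPKM, which divides by gene length and so gives short genes their weight, the ratios of the sums were 2.1 for doxorubicin over PBS and 2.19 for both compounds over histidine.

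Gene by gene, edgeR's quasi-likelihood test with Benjamini-Hochberg adjustment over the 15449 genes tested called 29 of the 36 replication-dependent histones higher in doxorubicin than in PBS at an adjusted p under 0.05, and 0 lower. Over all genes tested, 21.7% were called higher and 21.5% lower, so the share of these histones called higher was well above the background and the share called lower was below it, with 43.2% called in either direction. All 53 histone genes passed the filter on low counts. Of these the H2B type 1-N entry ENSRNOG00000069233 passed it through the libraries with doxorubicin. It had 0.559 ± 0.211 CPM in doxorubicin and 0.427 ± 0.144 CPM with both compounds. In PBS it had 0.114 ± 0.077 CPM and with histidine 0.104 ± 0.0787 CPM (SD, n = 5 each). It is counted among the genes called higher, and that call is not independent of the filter. The median log2 fold change of the 36 was 1.33, beside 0.05 over all genes, and 35 of the 36 estimates were above 0. In 21 of the 36 the 5 doxorubicin libraries did not overlap the 5 PBS libraries, where 31.1% of all genes had groups that did not overlap. Between both compounds and histidine, which share no library with that comparison, 28 of the 36 were called higher and 0 lower, where 19.9% of all genes were called higher, 20.3% lower and 40.2% in either direction. The median log2 fold change there was 1.38, beside 0.01 over all genes, and 27 of the 36 had groups that did not overlap, against 35.2% of all genes. A total of 25 genes were called higher in each of these comparisons, which is 25 of 29 without histidine and 25 of 28 with it, and 4 genes in neither.

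The summed level of the variant histones was lower with doxorubicin apart from replicate 4. Their summed level was 1053, 1072, 1067, 2089.7 and 1057 CPM in doxorubicin libraries, against 1273, 1271, 1267, 1306 and 1278 CPM in PBS libraries, a ratio of 0.991 with doxorubicin replicate 4 and 0.831 without it. With both compounds the sum was 1085, 1005, 1077, 1118 and 1080.3 CPM, against 1230.2, 1297, 1236, 1351 and 1265 CPM with histidine, a ratio of 0.841, and these groups did not overlap. The 4 other doxorubicin libraries lay below every PBS library. In edgeR's test 2 of the 17 variants were higher in doxorubicin than in PBS and 5 lower, where 21.7% and 21.5% of all genes were, so the share called lower was not far from the background. With both compounds against histidine 1 was higher and 7 lower, where 19.9% and 20.3% of all genes were. The median log2 fold changes were -0.10 and -0.24, and 8 and 4 of the 17 estimates were above 0. Without doxorubicin replicate 4, doxorubicin against PBS gave 3 variants higher and 9 lower, and 29 replication-dependent histones higher and 1 lower, with 22.9% of all genes higher and 24.4% lower in that fit. Of the 29 replication-dependent calls in each fit 27 were shared: H1f1 and H1f4 were lost, and the H3.1 entry ENSRNOG00000068516 (0.63 ± 0.24, adjusted p 0.0373) and the H4 entry ENSRNOG00000032224 (1.28 ± 0.46, adjusted p 0.0285) were gained. Among the variants H1f6 was gained among those higher, and H1f10, H2az2l3, H2az2l2 and H3f3bl2 among those lower.

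**Figure D1:**
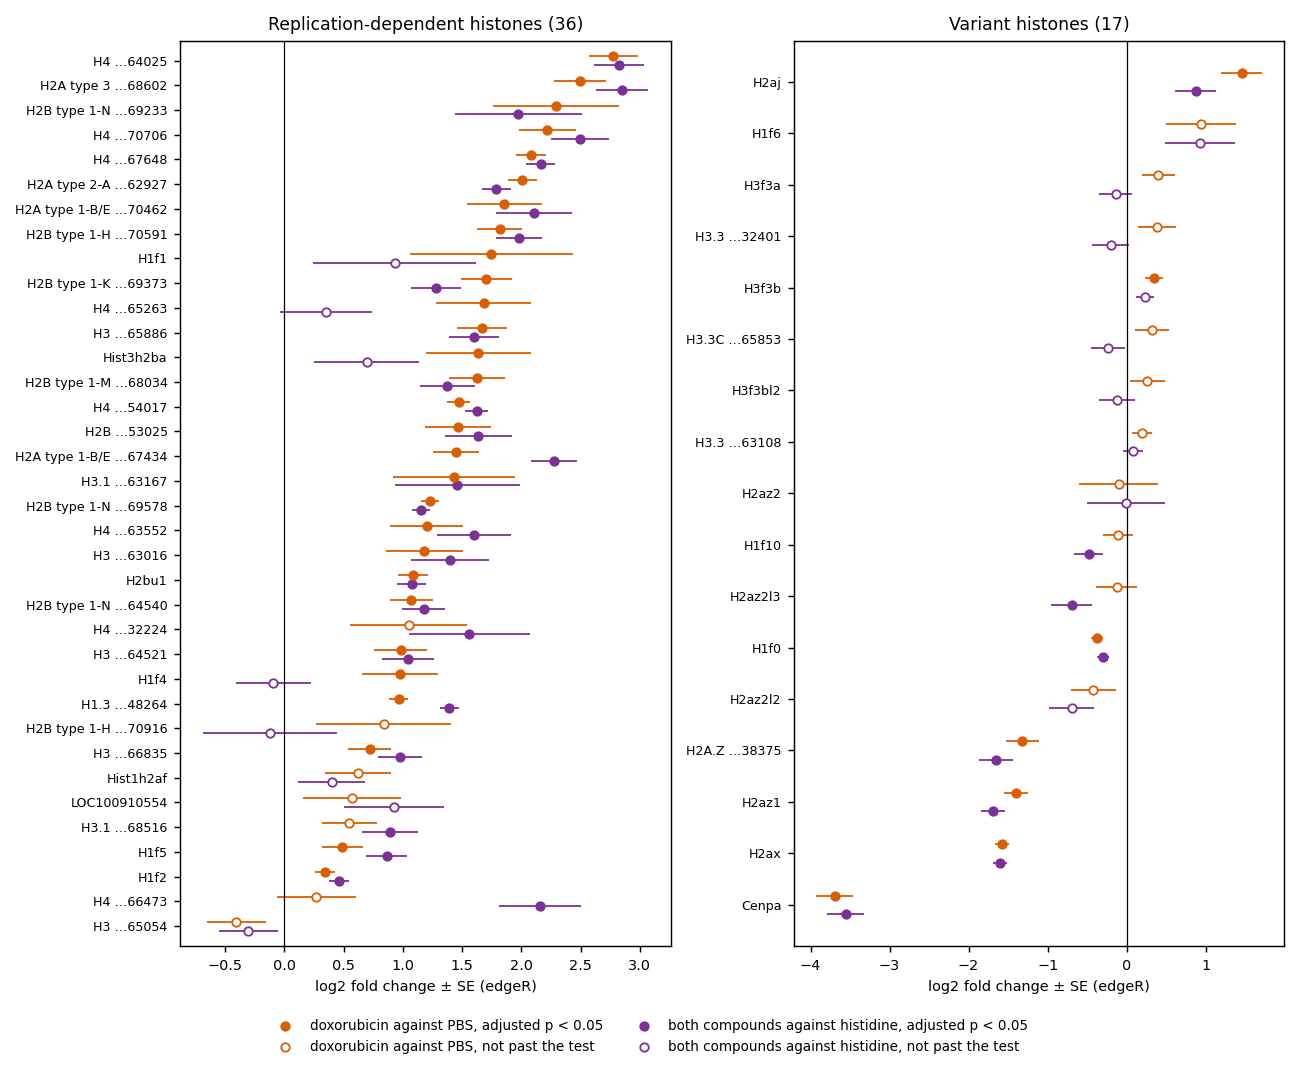
Log2 fold changes ± SE of the 36 replication-dependent (left) and 17 variant (right) histone genes in edgeR's fit, for doxorubicin against PBS (orange) and both compounds against histidine (purple); filled points passed an adjusted p of 0.05, and unnamed entries carry the last digits of their gene identifier. The replication-dependent genes lie to the right of 0 except 1 in doxorubicin against PBS and 3 in both compounds against histidine, while the variants lie on either side.

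**Figure D2:**
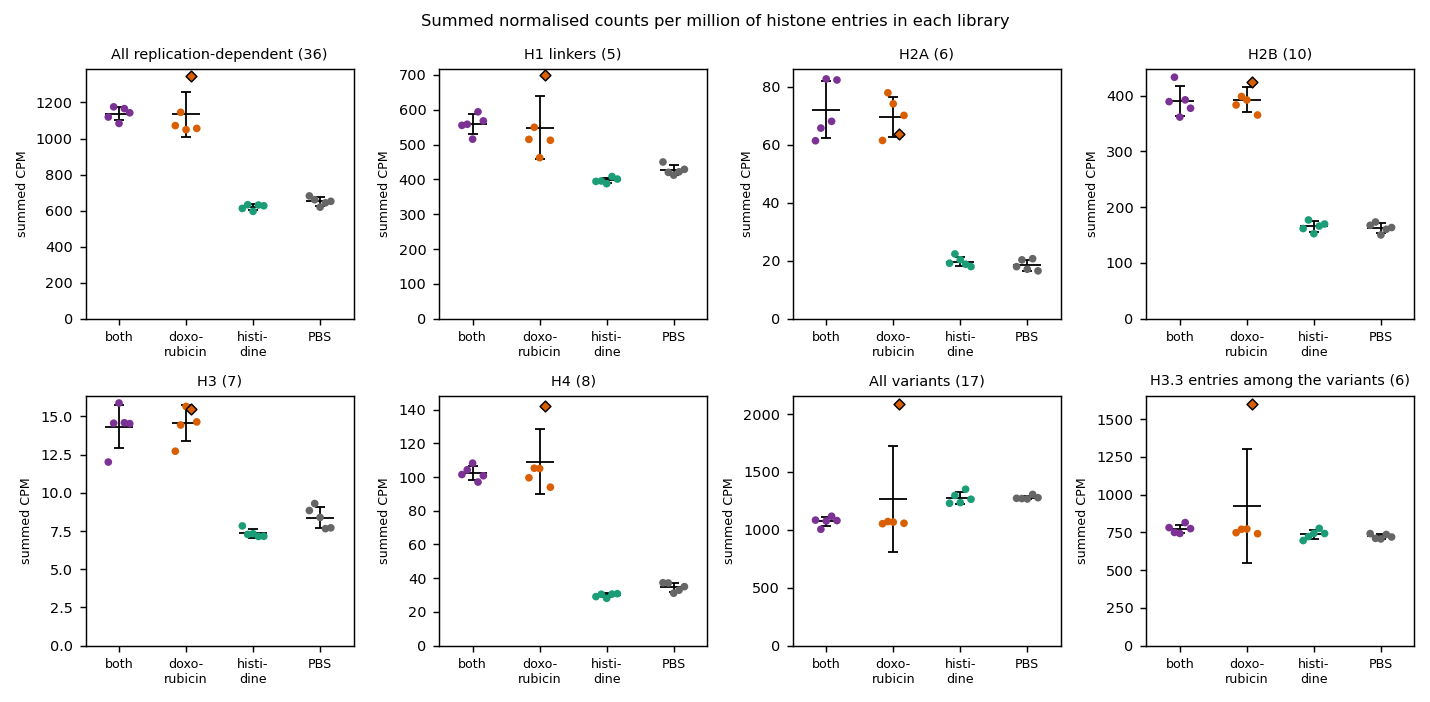
Summed CPM of histone entries in each library, by class and by family, for both compounds, doxorubicin, histidine and PBS (5 libraries each; bars give mean ± SD, the outlined diamond is doxorubicin replicate 4). Every replication-dependent family is higher in the 10 libraries with doxorubicin than in the 10 without, and the sum of the variants is not.

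Markers of proliferating cells and of other cell types moved with the drug. All 10 proliferation markers were lower in doxorubicin than in PBS (summed level 57.8 to 119 CPM in doxorubicin, against 733 to 770.1 CPM in PBS), as were 10 of 11 cardiomyocyte markers and 13 of 13 macrophage and leukocyte markers (169 to 258 CPM in doxorubicin, against 2309 to 2380.2 CPM in PBS). Of the fibroblast markers 4 of 10 were lower and 1 higher (31990.2 to 56259 CPM in doxorubicin, against 74623 to 82043 CPM in PBS), of the smooth muscle and pericyte markers 7 of 8 were lower (2705 to 5972 CPM in doxorubicin, against 7499 to 8793 CPM in PBS), and of the endothelial markers 4 of 7 were lower and 2 higher (24.1 to 35.2 CPM in doxorubicin, against 22.1 to 32.6 CPM in PBS). Over all genes tested, 21.5% were lower and 21.7% higher in doxorubicin than in PBS. No marker was at 0 in all doxorubicin libraries. With both compounds against histidine, 10 of 10 proliferation, 11 of 11 cardiomyocyte and 13 of 13 leukocyte markers were lower, beside 20.3% of all genes. The part of these markers in the histone results was not tested. In bulk RNA, fewer cells of a type and less RNA per cell cannot be told apart.

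Linker histones H1 bind the DNA that enters and leaves the nucleosome. All 5 replication-dependent H1 genes were higher in doxorubicin than in PBS, where 21.7% of all genes were. Without doxorubicin replicate 4, 3 of 5 were higher, where 22.9% of all genes were. With both compounds 3 of 5 were higher than with histidine, where 19.9% of all genes were. The most abundant, H1f2 (histone H1.2, ENSRNOG00000067441, chr17:41388477-41392635, minus strand), made up most of the H1 signal, with 118 ± 13.3 FPKM in doxorubicin libraries and 91 ± 3.45 FPKM in PBS libraries (SD, n = 5 each). H1f2 had 492, 528, 439, 680.0 and 491 CPM in doxorubicin libraries, against 439, 408, 401, 411 and 417 CPM in PBS libraries. It had 529.8, 531, 490.2, 569 and 543 CPM with both compounds, against 382, 385, 378, 399 and 389.9 CPM with histidine. The groups of neither comparison overlapped, although doxorubicin replicate 3 lay within 1 CPM of the highest PBS library. The log2 fold change was 0.34 ± 0.08 (adjusted p 0.00255, edgeR) for doxorubicin and 0.46 ± 0.08 (adjusted p 1.69e-04) for both compounds, the smallest rise among the replication-dependent genes called in doxorubicin against PBS.

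The histone H1.3 entry ENSRNOG00000048264 rose more, with log2 fold changes of 0.96 ± 0.08 for doxorubicin and 1.39 ± 0.08 for both compounds, on means of 18.3 ± 1.39 CPM in doxorubicin and 9.38 ± 0.615 CPM in PBS. H1f5 (histone H1.5) changed by 0.49 ± 0.18 and 0.86 ± 0.18. The span of the H1.3 entry runs over the H2A type 1-B/E entry ENSRNOG00000067434, which was called higher in both drug comparisons. H1f5 overlaps 3 other histone entries, and H1f2 overlaps the H4 entry ENSRNOG00000065263. These overlaps are of annotated spans, and whether exons overlap was not examined. The libraries do not mark strand, so reads in any stretch of exon that these genes share cannot be told apart by strand. H1f4 (histone H1.4) and H1f1 (histone H1.1), both under 1 FPKM, passed the test in doxorubicin against PBS (log2 fold changes 0.97 ± 0.32 and 1.75 ± 0.69) but not in both compounds against histidine (-0.09 ± 0.32 and 0.93 ± 0.69). Without doxorubicin replicate 4 neither passed in doxorubicin against PBS, at 0.76 ± 0.31 (adjusted p 0.0538) for H1f4 and 1.73 ± 0.73 (adjusted p 0.0585) for H1f1.

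Of the 21 histone genes that could be paired with a RefSeq symbol, 14 through a protein accession and 7 through the protein name, all 21 had a promoter of 300 bases (250 before and 50 after the annotated start) in the RefSeq table of assembly GRCr8. The promoters of the H1 genes with a symbol, apart from H1f10 (histone H1x), are printed. They set the 4 replication-dependent ones, which were called higher in doxorubicin than in PBS, beside the variants H1f6 and H1f0. H2bu1 and H2ax are printed with them. The set was picked by hand and follows no rule. Each run below covers bases -125 to -21 from the start, 5' to 3' on the gene's strand, with capitals marking matches, on either strand, to the CCAAT box (searched by the letters of its name), the H1 box AAACACA, the TATA box as TATAAA and the octamer ATTTGCAT; coordinates are of GRCr8. The replication-dependent H1f1, H1f2, H1f4 and H1f5 come first, then the replication-dependent H2bu1 (histone H2B type 3-B), then the variants H1f6 (histone H1t), H1f0 (histone H1.0) and H2ax (histone H2AX).
H1f1, chr17:41794889-41794993, minus strand: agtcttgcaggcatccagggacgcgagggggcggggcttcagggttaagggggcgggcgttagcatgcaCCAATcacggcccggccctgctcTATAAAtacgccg
H1f2, chr17:41820474-41820578, minus strand: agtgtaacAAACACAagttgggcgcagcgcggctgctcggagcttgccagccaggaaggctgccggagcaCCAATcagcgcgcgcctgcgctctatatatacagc
H1f4, chr17:41914300-41914404, plus strand: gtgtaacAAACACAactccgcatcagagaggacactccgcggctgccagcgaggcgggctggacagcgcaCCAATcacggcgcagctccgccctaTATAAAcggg
H1f5, chr17:47421750-47421854, plus strand: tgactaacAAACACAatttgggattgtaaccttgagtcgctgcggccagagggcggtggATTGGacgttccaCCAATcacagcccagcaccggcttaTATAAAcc
H2bu1, chr10:44233086-44233190, minus strand: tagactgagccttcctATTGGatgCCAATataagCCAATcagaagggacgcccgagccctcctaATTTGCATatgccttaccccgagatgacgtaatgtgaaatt
H1f6, chr17:41855981-41856085, minus strand: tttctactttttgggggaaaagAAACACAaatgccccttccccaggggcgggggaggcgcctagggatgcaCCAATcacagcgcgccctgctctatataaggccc
H1f0, chr7:112473155-112473259, plus strand: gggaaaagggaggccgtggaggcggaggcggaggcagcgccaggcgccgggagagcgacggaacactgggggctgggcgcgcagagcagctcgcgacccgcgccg
H2ax, chr8:53568593-53568697, plus strand: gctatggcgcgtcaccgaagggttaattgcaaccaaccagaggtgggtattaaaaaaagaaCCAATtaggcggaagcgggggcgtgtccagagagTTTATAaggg

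In H1f1, H1f2, H1f4, H1f5 and H1f6 a CCAAT box on the gene's strand began at -56, -55, -55, -53 and -54. The H1 box began at -117, -118 and -117 in H1f2, H1f4 and H1f5, and at -103 in H1f6, and was not found in H1f1. H1f0, and H1f10, which is not printed, held none of the CCAAT box, H1 box, TATA box or octamer in their promoters. Over the 8 replication-dependent promoters, 8 held a CCAAT box, 3 the H1 box, 5 the TATA box and 2 the octamer, and over the 13 variant promoters 10, 2, 5 and 1 did. Over all 27457 promoters of that table these motifs were in 37.7%, 6.96%, 14.3% and 1.64%. Of the other motifs searched, TTTGAA was in 4 of 8, in 6 of 13 and in 18.1% of all promoters, and GGGCGG in 6 of 8, in 8 of 13 and in 34.9%. Members with no RefSeq symbol, which include all H3 and H4 genes of the replication-dependent class and most H2B genes, were not searched. A match of letters is a description and shows no binding.

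**Figure D3:**
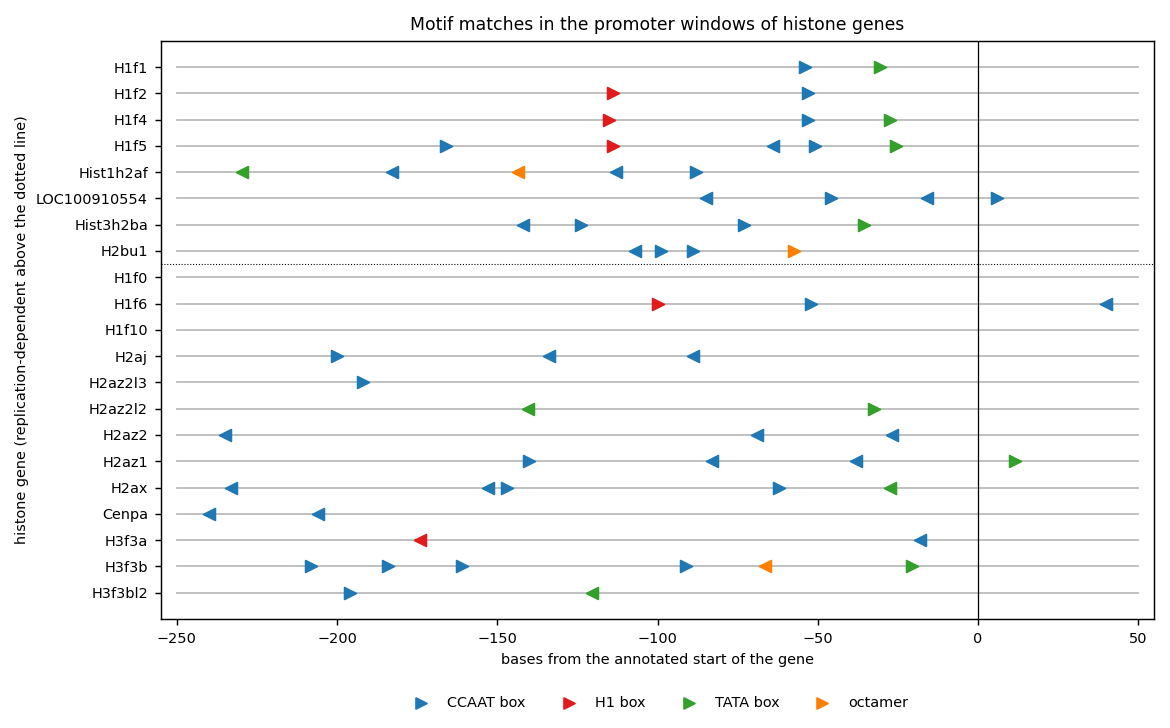
Positions of CCAAT box, H1 box, TATA box and octamer matches in the promoter windows of 21 histone genes, in bases from the annotated start (x axis); arrowheads to the right lie on the gene's strand and those to the left on the reverse strand. The 4 replication-dependent H1 genes and H1f6 share a CCAAT box close to -55, and H1f0 and H1f10 hold no match.

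H2A and H2B form the dimers that sit on each face of the nucleosome. Doxorubicin raised 4 of 6 H2A and 9 of 10 H2B genes, and both compounds raised 4 of 6 and 8 of 10 relative to histidine. In these comparisons 21.7% and 19.9% of all genes were called higher. Summed per family, H2A had 69.5 ± 6.88 CPM in doxorubicin and 18.5 ± 1.9 CPM in PBS (SD, n = 5 each), a ratio of 3.75, and H2B had 393 ± 21.8 CPM in doxorubicin and 163 ± 8.63 CPM in PBS, a ratio of 2.41. For both compounds over histidine the ratios were 3.65 and 2.36.

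The H2B type 1-N entry ENSRNOG00000069578 (chr17:41429164-41442153, minus strand) held a mean FPKM next to that of H1f2 of the class and led H2B. It had 257, 281, 302, 335 and 259 CPM in doxorubicin libraries, against 124, 126, 111, 124 and 127 CPM in PBS libraries. It had 287, 298, 255, 281 and 269 CPM with both compounds, against 114, 141, 121, 127 and 123 CPM with histidine. Neither pair of groups overlapped, and the log2 fold changes were 1.23 ± 0.08 (adjusted p 9.29e-11, edgeR) and 1.15 ± 0.08 (adjusted p 2.04e-10). It overlaps the histone H2B entry ENSRNOG00000053025, which changed by 1.47 ± 0.28 and 1.64 ± 0.28, as well as ENSRNOG00000067310, which is no histone. The libraries do not mark strand, so reads in any stretch of exon that such genes share cannot be told apart by strand.

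The H2A type 2-A entry ENSRNOG00000062927 (chr2:183779559-183809469, plus strand) lies outside the chromosome 17 clusters. It had 47.4, 59.8, 57.5, 50.9 and 55.8 CPM in doxorubicin libraries, against 13.4, 15.4, 13.2, 14.6 and 10.6 CPM in PBS libraries. It had 45.9, 47.8, 66.6, 50.9 and 63.9 CPM with both compounds, against 15.2, 18.1, 17.4, 15.6 and 13.4 CPM with histidine. The groups of each comparison lay far apart, with log2 fold changes of 2.01 ± 0.12 (adjusted p 6.55e-11, edgeR) and 1.79 ± 0.12 (adjusted p 3.00e-10). Its annotated span runs over the gene of BolA-like protein 1 (ENSRNOG00000021185), which did not pass the test, at 0.16 ± 0.13 and -0.29 ± 0.13. The H2A type 3 entry ENSRNOG00000068602 (chr17:42718263-42722997, plus strand) had the largest H2A change from a low level. It had 3.8, 4.47, 4.14, 3.76 and 4.54 CPM in doxorubicin libraries, against 0.943, 0.541, 0.677, 0.517 and 1.0 CPM in PBS libraries, and 4.47, 3.94, 4.48, 4.15 and 4.85 CPM with both compounds, against 1.0, 0.535, 0.476, 0.564 and 0.431 CPM with histidine. The log2 fold changes were 2.50 ± 0.22 (adjusted p 1.34e-08, edgeR) and 2.85 ± 0.22 (adjusted p 2.61e-09), and neither pair of groups overlapped.

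H2bu1 (histone H2B type 3-B, on chromosome 10), whose promoter is printed above, had 30.2 ± 5.54 CPM in doxorubicin and 14.2 ± 1.6 CPM in PBS, with log2 fold changes of 1.08 ± 0.12 and 1.07 ± 0.13 in both drug comparisons. The H2B type 1-H entry ENSRNOG00000070591 on chromosome 2 changed by 1.82 ± 0.19 and 1.98 ± 0.19. Hist1h2af and LOC100910554, both H2A type 3, and the H2B type 1-H entry ENSRNOG00000070916 passed the test in neither comparison. Their log2 fold changes in doxorubicin against PBS were 0.62 ± 0.28, 0.57 ± 0.41 and 0.84 ± 0.57. In both compounds against histidine they were 0.40 ± 0.28, 0.92 ± 0.42 and -0.12 ± 0.57, the last of these below 0.

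Among the H2A and H2B genes whose values are not yet given, log2 fold changes in doxorubicin against PBS ran from 1.07 to 2.29. All 7 passed the test there, where 21.7% of all genes were called higher. The value of 2.29 was that of ENSRNOG00000069233, which passed the filter on low counts through the libraries with doxorubicin. With both compounds against histidine the 7 values ran from 0.69 to 2.28, and 6 of 7 passed, where 19.9% of all genes were called higher. The lowest of these was Hist3h2ba (histone H2B type 3-A), at 0.69 ± 0.44; in doxorubicin against PBS it was 1.64 ± 0.44, and 1.1 ± 0.39 without doxorubicin replicate 4.

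H3 and H4 form the tetramer at the core of the nucleosome. Doxorubicin raised 5 of 7 H3 and 6 of 8 H4 genes, and both compounds raised 6 of 7 and 7 of 8 relative to histidine. In these comparisons 21.7% and 19.9% of all genes were called higher. Summed per family, H3 had 14.6 ± 1.17 CPM in doxorubicin and 8.38 ± 0.712 CPM in PBS, a ratio of 1.74, and H4 had 109 ± 19 CPM in doxorubicin and 34.7 ± 2.7 CPM in PBS, a ratio of 3.15 (2.91 without doxorubicin replicate 4). The ratios of both compounds to histidine were 1.95 for H3 and 3.43 for H4.

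The H4 entry ENSRNOG00000067648 (chr4:169672423-169672734, minus strand), a gene of 312 bases with no overlapping neighbour, was the most abundant H4 by FPKM, with 49 ± 5.45 FPKM in doxorubicin and 11.2 ± 0.749 FPKM in PBS. It had 14, 17.2, 14.2, 20.5 and 15.8 CPM in doxorubicin libraries, against 3.57, 3.66, 3.8, 4.25 and 4.01 CPM in PBS libraries. It had 13.6, 13.4, 18, 13.7 and 16.4 CPM with both compounds, against 3.71, 2.83, 3.17, 3.09 and 3.95 CPM with histidine. Every library with doxorubicin was higher than every library without it, and the log2 fold changes were 2.08 ± 0.12 (adjusted p 4.73e-11, edgeR) and 2.16 ± 0.12 (adjusted p 2.74e-11).

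The H4 entry ENSRNOG00000064025 (chr17:41574520-41575555, minus strand) had the largest rise of any histone gene in doxorubicin against PBS. It had 9.91, 9.41, 13.2, 20.7 and 8.62 CPM in doxorubicin libraries, against 1.34, 2.1, 2.15, 1.6 and 1.81 CPM in PBS libraries. It had 9.07, 9.71, 9.31, 10.1 and 9.62 CPM with both compounds, against 1.23, 1.61, 1.24, 1.23 and 1.44 CPM with histidine. Replicate 4 was the highest doxorubicin library, and the lowest doxorubicin library still exceeded every PBS library. The log2 fold change was 2.78 ± 0.20 (adjusted p 1.05e-09, edgeR), 2.51 ± 0.14 without doxorubicin replicate 4, and 2.82 ± 0.21 (adjusted p 9.84e-10) for both compounds. The H4 entry ENSRNOG00000070706 (chr17:41425396-41426737, plus strand) was scarcer, with 3.07, 3.26, 4.91, 2.5 and 3.48 CPM in doxorubicin libraries, against 0.624, 0.571, 0.81, 0.781 and 0.906 CPM in PBS libraries. It had 2.84, 3.85, 4.48, 3.53 and 2.84 CPM with both compounds, against 0.845, 0.382, 0.508, 0.487 and 0.881 CPM with histidine. Its groups did not overlap either, with log2 fold changes of 2.22 ± 0.24 (adjusted p 2.73e-07, edgeR) and 2.49 ± 0.24 (adjusted p 7.18e-08). H4 genes encode near-identical proteins, and reads shared between copies could have been split among them, so values of single H4, H2A, H2B and H3 entries are uncertain.

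The H3 entry ENSRNOG00000065054 was the exception to the rise, with 1.68 ± 0.692 CPM in doxorubicin and 2.23 ± 0.649 CPM in PBS (log2 fold change -0.41 ± 0.25, adjusted p 0.195). Without doxorubicin replicate 4 it was called lower (-0.69 ± 0.22, adjusted p 0.0131), and it was -0.30 ± 0.25 (adjusted p 0.368) for both compounds against histidine. It overlaps the H3 entry ENSRNOG00000066835 and the H4 entry ENSRNOG00000065263. That H4 entry passed the test in doxorubicin against PBS at 1.68 ± 0.40 (1.21 ± 0.35 without doxorubicin replicate 4) but not in both compounds against histidine at 0.35 ± 0.39. The H4 entry ENSRNOG00000066473 did the opposite, at 0.27 ± 0.33 and 2.16 ± 0.35. These 3 entries, named after their values were seen, each had under 2 FPKM except ENSRNOG00000065054, at 2.96 FPKM.

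The other 9 H3 and H4 genes had log2 fold changes of 0.55 to 1.67 in doxorubicin against PBS, where 7 were higher. In both compounds against histidine they had 0.89 to 1.62, and 9 were higher. Over all genes 21.7% and 19.9% were called higher. Of the 9 genes the H4 entry ENSRNOG00000054017 was the most abundant, at 22.8 ± 2.5 FPKM in doxorubicin and 7.99 ± 0.889 FPKM in PBS. It changed by 1.47 ± 0.10 and 1.62 ± 0.10.

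**Figure D4:**
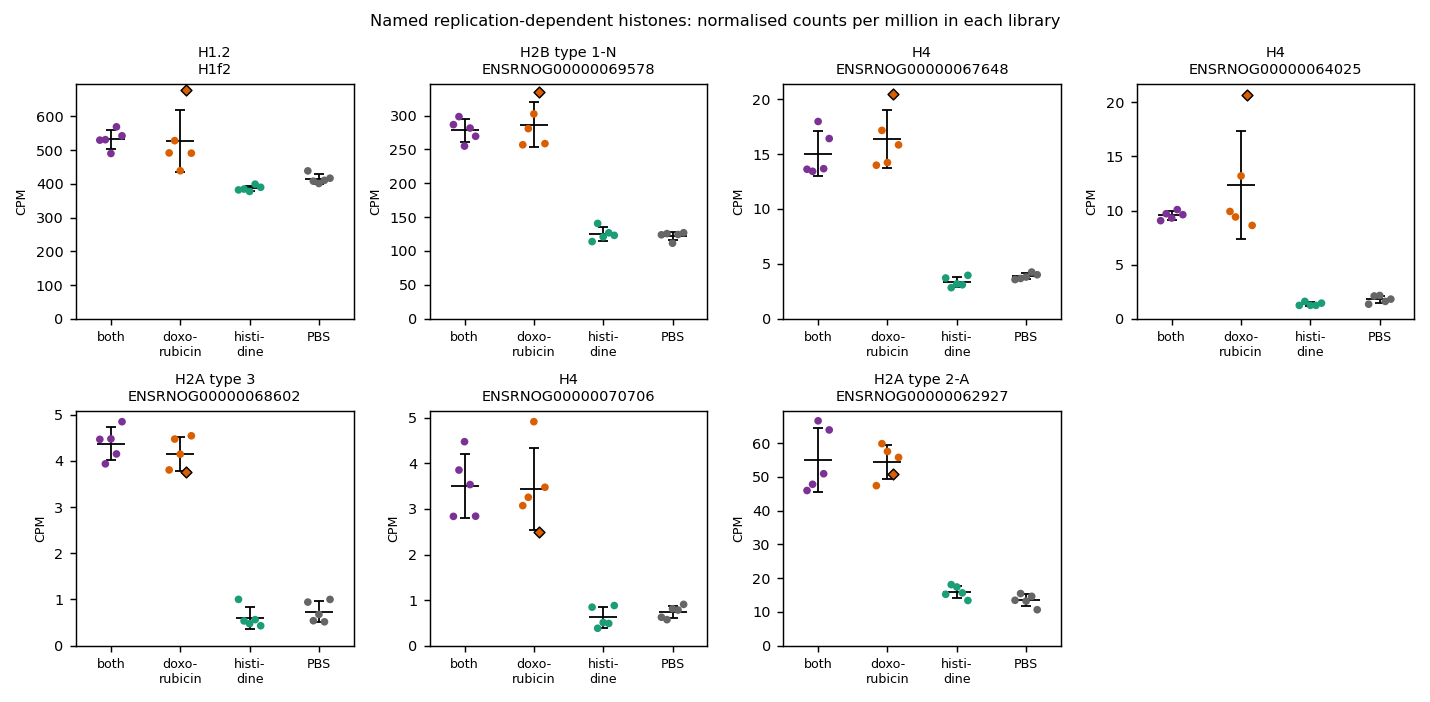
CPM of the 7 replication-dependent histone genes with the highest FPKM or the largest rises, in each library of both compounds, doxorubicin, histidine and PBS (5 libraries each; bars give mean ± SD, the outlined diamond is doxorubicin replicate 4). For each gene every library with doxorubicin lies above every library without it, by the narrowest gap for H1f2.

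Calls were spread over gene blocks, lengths and overlaps. Of the 36 replication-dependent genes, 28 lay on chromosome 17 in blocks of 15 and 13 genes (chr17:41366268-41575555 and chr17:42478860-42793359 in the coordinates of the deposited table, mRatBN7.2), 5 on chromosome 2, 2 on chromosome 10 and 1 on chromosome 4. Doxorubicin raised 22 of 28 genes on chromosome 17, 4 of 5 on chromosome 2, 2 of 2 on chromosome 10 and 1 of 1 on chromosome 4. For these counts and those that follow, 21.7% of all genes were higher in doxorubicin than in PBS. With both compounds 19.9% of all genes were higher than with histidine. Gene length, computed from the ratio of reads to FPKM, ran from 312 to 4298 bases with a median of 987. The 10 genes of at least 2000 bases held 94.9% of the counts of the class, and all 10 were higher in each drug comparison. Of the 26 shorter genes, 19 were higher in doxorubicin than in PBS and 18 with both compounds than with histidine. Of the 17 genes that overlap no other gene in the table, 15 were higher in doxorubicin, and of the 19 that do, 14 were; 18 of those 19 overlap another histone entry. Levels were uneven. H1f2, ENSRNOG00000069578 and ENSRNOG00000067648, the 3 highest by FPKM, together made up 76.5% of the counts of the class (52.5%, 22.9% and 1.09%). They made up 63.7% of its summed FPKM, and 8 of the 36 genes had a mean under 1 FPKM.

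Among the 17 variants, 5 were lower in doxorubicin than in PBS, where 21.5% of all genes were. CENP-A, the H3 variant that marks centromeres (Cenpa, ENSRNOG00000032178, chr6:25700142-25711675, minus strand), had the largest change of any histone gene. It had 1.63, 2.02, 1.88, 1.36 and 2.38 CPM in doxorubicin libraries, against 24.9, 26.1, 23.7, 22.6 and 22.6 CPM in PBS libraries. It had 2.2, 3.08, 2.2, 1.7 and 0.834 CPM with both compounds, against 23.3, 25.6, 19.6, 24.9 and 24.4 CPM with histidine. The libraries with doxorubicin lay far below the others and did not overlap them, with log2 fold changes of -3.69 ± 0.23 (adjusted p 1.12e-10, edgeR) and -3.56 ± 0.23 (adjusted p 1.63e-10).

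H2AX, the H2A variant that is phosphorylated around DNA breaks (H2ax, ENSRNOG00000010386, chr8:44671786-44673239, plus strand), had 29.4, 32.1, 30, 27.2 and 33.5 CPM in doxorubicin libraries, against 79.2, 96, 93, 94.3 and 92 CPM in PBS libraries. It had 27.5, 24.6, 34.8, 28.4 and 29.7 CPM with both compounds, against 91.5, 97.4, 82.3, 91.8 and 77.3 CPM with histidine. Neither pair of groups overlapped, with log2 fold changes of -1.58 ± 0.09 (adjusted p 2.85e-11, edgeR) and -1.60 ± 0.09 (adjusted p 2.14e-11). The promoter stretch of H2ax printed above holds a CCAAT box, and a TATA box on the reverse strand.

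H2A.Z, a variant found at promoters, fell as well. H2az1 (histone H2A.Z, ENSRNOG00000010306, chr2:226355708-226358485, plus strand) had 45.8, 50.7, 58.3, 99.3 and 49.5 CPM in doxorubicin libraries, against 154, 167, 158, 164 and 160.3 CPM in PBS libraries. It had 51.3, 48, 55.7, 51.8 and 49.8 CPM with both compounds, against 162, 176, 142, 182 and 167 CPM with histidine. Replicate 4 was the highest doxorubicin library but lay below every PBS library. The log2 fold changes were -1.40 ± 0.15 (adjusted p 2.80e-07, edgeR; -1.65 ± 0.07 without doxorubicin replicate 4) and -1.69 ± 0.15 (adjusted p 2.37e-08). The H2A.Z entry ENSRNOG00000038375 (chr16:66654287-66655279, plus strand) had 2.72 to 6.88 CPM in doxorubicin libraries, against 8.67 to 11 CPM in PBS libraries, and changed by -1.32 ± 0.21 (-1.64 ± 0.14 without doxorubicin replicate 4) and -1.65 ± 0.21. It carries the same protein name as H2az1, and reads shared between the pair cannot be assigned from gene counts. Of the 3 entries named H2A.V, H2az2 had log2 fold changes of -0.10 ± 0.50 and -0.01 ± 0.49 and H2az2l2 of -0.42 ± 0.28 and -0.70 ± 0.29, none of which passed the test. Without doxorubicin replicate 4 H2az2l2 was called lower in doxorubicin than in PBS, at -0.79 ± 0.24 (adjusted p 0.0119). H2az2l3 was lower with both compounds than with histidine (-0.69 ± 0.26) and not called in doxorubicin against PBS (-0.13 ± 0.26; -0.64 ± 0.11, adjusted p 1.23e-04, without doxorubicin replicate 4).

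H1.0 is a linker histone that accumulates in differentiated, non-dividing cells, and H1f0 (ENSRNOG00000063732, chr7:110592208-110594694, plus strand) was lower with the drug. It had 161, 155, 139, 196 and 156 CPM in doxorubicin libraries, against 208, 208, 212, 211 and 209.6 CPM in PBS libraries. It had 155, 132, 157, 162 and 163 CPM with both compounds, against 189, 198, 178, 202 and 181 CPM with histidine. The groups did not overlap, and the log2 fold changes were -0.38 ± 0.08 (adjusted p 4.76e-04, edgeR) and -0.30 ± 0.08 (adjusted p 0.00338). H1f10 (histone H1x) was lower with both compounds than with histidine (-0.48 ± 0.19, adjusted p 0.0462) and not called in doxorubicin against PBS (-0.11 ± 0.19), where it was lower without doxorubicin replicate 4 (-0.43 ± 0.10, adjusted p 0.00219). H1f6 (histone H1t, a linker histone of the testis) was scarce, at 0.732 ± 0.315 CPM in doxorubicin and 0.38 ± 0.228 CPM in PBS, and passed neither test (0.94 ± 0.44 and 0.93 ± 0.44). Without doxorubicin replicate 4 it was called higher in doxorubicin (1.15 ± 0.42, adjusted p 0.030).

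While 5 variants were called lower in doxorubicin than in PBS, 2 were called higher, where 21.5% and 21.7% of all genes were. Of the 17 estimates 8 were above 0. H2A.J, an H2A variant reported to accumulate in senescent human fibroblasts (H2aj, ENSRNOG00000045819, chr4:169675752-169677006, plus strand), had 31.5, 25.4, 33.4, 76.2 and 37.1 CPM in doxorubicin libraries, against 13, 12.6, 17.7, 17.8 and 13.4 CPM in PBS libraries. It had 31.6, 14.5, 37.1, 25.7 and 29 CPM with both compounds, against 15.2, 16.3, 17.5, 14.7 and 11.6 CPM with histidine. Doxorubicin and PBS libraries did not overlap, with replicate 4 the highest, and 1 library with both compounds lay among the histidine libraries. The log2 fold changes were 1.45 ± 0.26 (adjusted p 1.39e-04, edgeR; 1.1 ± 0.20, adjusted p 1.54e-04, without doxorubicin replicate 4) and 0.87 ± 0.26 (adjusted p 0.0104). H2aj lies 3017 bases from the H4 entry ENSRNOG00000067648 described above, which rose in the same comparisons.

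H3.3 is the replacement H3 that is put into chromatin outside S phase, and H3f3b and H3f3a are its main genes. H3f3b (ENSRNOG00000006532, chr10:101256480-101258709, minus strand), the most abundant histone gene of all, had 321 ± 64.6 FPKM in doxorubicin and 247 ± 3.64 FPKM in PBS. It had 471, 483, 474, 808 and 477 CPM in doxorubicin libraries, against 430.0, 418, 423, 432 and 433 CPM in PBS libraries, with replicate 4 far above the other doxorubicin libraries. It had 502, 474, 467, 524 and 505 CPM with both compounds, against 401, 410.3, 423, 455 and 426 CPM with histidine. The doxorubicin libraries did not overlap the PBS libraries, and the log2 fold change was 0.35 ± 0.11 (adjusted p 0.0194, edgeR), or 0.16 ± 0.04 (adjusted p 0.00414) without doxorubicin replicate 4. With both compounds it was 0.22 ± 0.11 and did not pass the test (adjusted p 0.128), although the groups did not overlap. That SE comes from the fit of all 4 groups, doxorubicin replicate 4 included, and the part of this library in it was not tested.

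H3f3a (ENSRNOG00000003220, chr13:92533298-92544908, minus strand) had 139, 145, 150.2, 372 and 127 CPM in doxorubicin libraries, against 150.4, 145, 127, 149 and 137 CPM in PBS libraries. It had 145, 134, 128, 142 and 136 CPM with both compounds, against 141, 145, 155, 152 and 163 CPM with histidine. The groups overlapped apart from doxorubicin replicate 4, and the log2 fold change of 0.40 ± 0.21 (adjusted p 0.131) became -0.01 ± 0.06 without that library; with both compounds it was -0.14 ± 0.21. The H3.3 entry ENSRNOG00000032401 (chr7:86501071-86502140, plus strand) had 105, 105, 111, 329 and 104 CPM in doxorubicin libraries, against 122, 110.1, 117, 119 and 113 CPM in PBS libraries, and 102, 105, 112, 112 and 101 CPM with both compounds, against 116, 128, 126, 131 and 112 CPM with histidine. Its log2 fold change was 0.38 ± 0.24 (adjusted p 0.208), and -0.12 ± 0.05 (adjusted p 0.0564) without doxorubicin replicate 4. The libraries with both compounds lay just below those with histidine, at -0.21 ± 0.24 (adjusted p 0.537). The reads of this entry stood at 0.688 to 0.918 of those of H3f3a in every library, replicate 4 included, and its length of 1068 bases nearly fills its span of 1070 bases. The other H3.3 entries, H3f3bl2, ENSRNOG00000063108 and the H3.3C entry ENSRNOG00000065853, had log2 fold changes of 0.26 ± 0.22, 0.19 ± 0.13 and 0.32 ± 0.21 in doxorubicin against PBS, and passed the test in neither comparison. Without doxorubicin replicate 4 the values were -0.20 ± 0.06 (adjusted p 0.0152, called lower), 0.10 ± 0.12 and -0.09 ± 0.08, so the direction turned for H3f3bl2 and the H3.3C entry. Whether these copies have reads of their own cannot be told from gene counts.

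**Figure D5:**
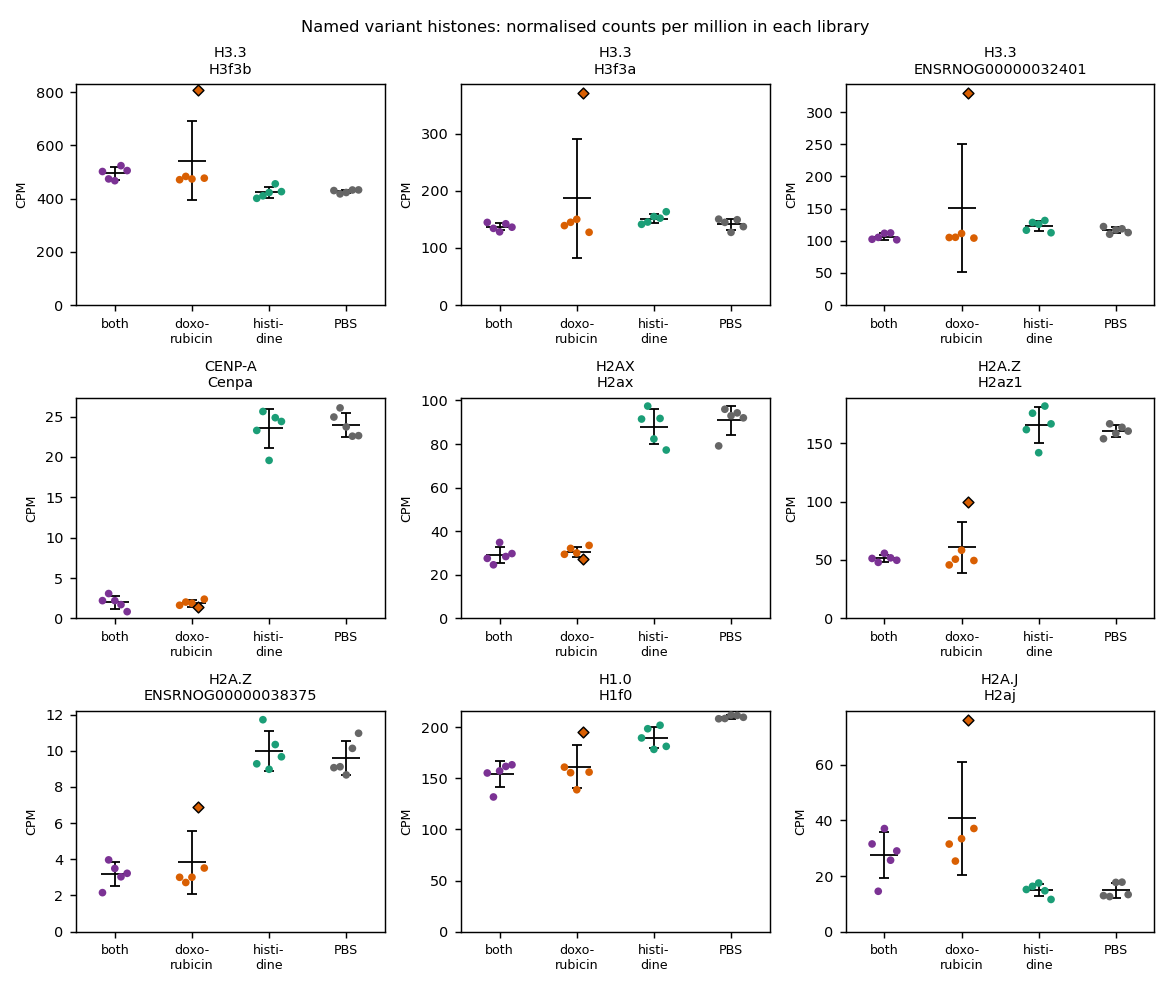
CPM of the 9 named variant histone genes in each library of both compounds, doxorubicin, histidine and PBS (5 libraries each; bars give mean ± SD, the outlined diamond is doxorubicin replicate 4). Cenpa, H2ax, both H2A.Z entries and H1f0 are lower with doxorubicin, H2aj is higher, and doxorubicin replicate 4 is the highest doxorubicin library for the H3.3 entries, H2aj, both H2A.Z entries and H1f0.

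Histidine changed no histone gene past the test. In histidine against PBS, in both compounds against doxorubicin, and in the interaction of the compounds, edgeR called 0 of 53 histone genes and 0.0% of all genes, and groups of 5 libraries did not overlap in 0.841% and 1.06% of all genes in the first and second of these comparisons. Of the 53 histone genes 2 did not overlap in histidine against PBS, H1f2 and H1f0, whose histidine libraries lay below the PBS libraries without passing the test (-0.10 ± 0.08 and -0.14 ± 0.08, adjusted p 1.0 for each), and 1 in both compounds against doxorubicin, the H1.3 entry (0.25 ± 0.08, adjusted p 0.393). At an unadjusted p under 0.05 there were 4, 7 and 5 histone genes and 312, 1940 and 1060 of all genes. DESeq2 called 0 histone genes in each, and 5, 22 and 17 of all genes. The replication-dependent sum was 619.7 ± 15.6 CPM with histidine and 651 ± 22.9 CPM in PBS, a ratio of 0.952, and 1138 ± 37.2 CPM with both compounds and 1134 ± 125 CPM with doxorubicin, a ratio of 1.0 (1.05 without doxorubicin replicate 4). For H1f2 the log2 fold change was 0.02 ± 0.08 in both compounds against doxorubicin, and for the H2B entry ENSRNOG00000069578 it was 0.03 ± 0.08 in histidine against PBS and -0.04 ± 0.08 in both compounds against doxorubicin. Over the 53 genes the estimates ran from -0.95 to 0.77 in histidine against PBS and from -0.72 to 0.94 in both compounds against doxorubicin. A p that misses the threshold does not show that histidine left these genes unaltered.

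Genes that accompany S phase were lower where the replication-dependent histones were higher. Of 31 measured S phase and DNA replication genes, 29 were lower and 1 higher in doxorubicin than in PBS, with a median log2 fold change of -1.28, and 30 were lower and 1 higher with both compounds than with histidine. Their summed level was 419 to 512 CPM in doxorubicin and 1093 to 1122 CPM in PBS. Over all genes tested, 21.5% were lower and 21.7% higher in doxorubicin than in PBS, and 20.3% and 19.9% with both compounds than with histidine. Prim1, a subunit of DNA primase, had 19.9 ± 1.63 CPM in doxorubicin and 48.3 ± 1.84 CPM in PBS (log2 fold change -1.28 ± 0.07). Mcm3, a subunit of the replicative helicase, had 18.9 ± 3.46 CPM in doxorubicin and 59.2 ± 2.01 CPM in PBS (-1.65 ± 0.10).

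Of 26 measured genes for transcription and 3' end processing of histone mRNA, 3 were higher and 9 lower in doxorubicin than in PBS, where 21.7% and 21.5% of all genes were. The median log2 fold change of the 26 was -0.15. With both compounds against histidine 2 of the 26 were higher and 7 lower, where 19.9% and 20.3% of all genes were. Among the genes of this list that fell were the S phase kinase Cdk2 (-1.27 ± 0.09) and its cyclins Ccne1 (-1.13 ± 0.08) and Ccne2 (-1.38 ± 0.14). Slbp, the stem-loop binding protein, had 30.2 ± 3.64 CPM in doxorubicin and 42.9 ± 0.755 CPM in PBS, a log2 fold change of -0.50 ± 0.08 (adjusted p 2.09e-05, edgeR), and -0.69 ± 0.08 (adjusted p 4.19e-07) with both compounds. Eri1, an exonuclease that trims histone mRNA ends, changed by -0.45 ± 0.07 and -0.52 ± 0.07. Npat, the S phase activator of histone transcription, had 39.8 ± 6.26 CPM in doxorubicin and 44 ± 2.59 CPM in PBS and passed neither test (-0.14 ± 0.10 and -0.17 ± 0.10). Of 15 genes of general cleavage and polyadenylation, 1 was higher (Fip1l1, 0.32 ± 0.08) and 3 lower in doxorubicin than in PBS, shares at or below the 21.7% and 21.5% of all genes called.

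The macroH2A variants, which bear a macro domain and whose protein names fall outside the rule, were measured too. Macroh2a2 had 13.2 ± 0.832 CPM in doxorubicin and 17.9 ± 1.24 CPM in PBS (-0.45 ± 0.07, adjusted p 6.08e-05, edgeR). Macroh2a1 had 75.6 ± 12.8 CPM in doxorubicin and 79.9 ± 8.4 CPM in PBS and did not pass the test (-0.08 ± 0.10). Of the entries set aside as no histones, Mysm1 was 0.28 ± 0.10 (adjusted p 0.0318) and Hinfp -0.21 ± 0.09 (adjusted p 0.066) in doxorubicin against PBS.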

How the data were processed

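Polyadenylated RNA of 20 libraries, 5 per group by the sample titles, was sequenced. The RNA was taken up on oligo(dT) beads and, per the labels' protocols, copied from random hexamers without marking the strand. The deposited table holds raw read counts of each gene as whole numbers, and FPKM, which the authors scaled to gene length and library reads, per the file headers. The submitters' processing notes name Trimmomatic and the build mRatBN7.2. Which aligner, counter and gene annotation were used is not stated in those notes or labels.

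The counts were fitted with edgeR 4.0.16 (R 4.3.3; TMM, filterByExpr, quasi-likelihood F test, 4 groups in a single fit, Benjamini-Hochberg over 15449 genes). CPM are TMM-normalised; class sums are descriptions with no test. Alternatives were DESeq2 1.42.0, RLE factors, no filter, a mean of at least 1 CPM, a replicate block, only the 2 groups compared, limma 3.58.1 on log2(FPKM + 1) and log2(FPKM + 0.1), and leaving out each library. Tested on simulated counts for doxorubicin against PBS over 15183 genes, the fit recovered 13.4%, 77.6% and 100% of genes changed 1.5, 2 and 4 times. Only 67, 67 and 66 genes were changed by these amounts, none of them with few reads in PBS, and every gene had the same dispersion. In the data 43.2% of genes were called and the spread differs by gene, so these rates do not give the share recovered there. Gene length is reads over FPKM, divided by 1.07, the median ratio of that length to the annotated span over the 1008 genes where it exceeded the span. Values in every library are given for the 3 members of each class with the highest FPKM, the 5 largest rises and 5 largest falls, and members whose call went against most calls of their class. Other named genes are described by group values. The members and lists were chosen with earlier results of these data known. Within groups, the 40 pairs of libraries had chi-square values of 34.5 to 645 per degree of freedom, so none was a duplicate.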

Additional observations from a re-analysis of the deposited data

Results flagged for a closer look

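In 72 groups of 5 libraries (16 named genes and the 2 class sums, in 4 groups each), 12 had a library outlying from the other 4 by Dixon's criterion; chance alone flags about 1 in 20 groups, and values of 1 library recur, so the flags are not independent. Of these, 7 were doxorubicin replicate 4, the library that stands apart from the rest, and were high: H3f3b at 808 CPM, H3f3a at 372 CPM, the H3.3 entry ENSRNOG00000032401 at 329 CPM, H2az1 at 99.3 CPM, the H2A.Z entry ENSRNOG00000038375 at 6.88 CPM, H2aj at 76.2 CPM, and the variant sum at 2089.7 CPM. The other 4 doxorubicin libraries had 471 to 483 CPM for H3f3b, 127 to 150.2 CPM for H3f3a and 25.4 to 37.1 CPM for H2aj.

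The remaining flags were in other libraries. H1f0 was low in replicate 2 of both compounds at 132 CPM. The H2A type 3 entry ENSRNOG00000068602 was high in histidine replicate 1 at 1.0 CPM. The H2B type 1-N entry ENSRNOG00000069578 was low in PBS replicate 3 at 111 CPM, H2ax was low in PBS replicate 1 at 79.2 CPM, and the variant sum was high in PBS replicate 4 at 1306 CPM.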

How the results depend on the processing

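Counts of histone genes called kept within 1.5 times under DESeq2, RLE factors, no filter and the filter at 1 CPM, for each of the 4 contrasts and the interaction. Libraries of the 2 groups compared were left out 1 at a time. Replication-dependent genes called higher then numbered 26 to 29 (doxorubicin against PBS) and 27 to 28 (both compounds against histidine), and lower 0 to 1 and 0 to 0. Variants called higher numbered 2 to 3 and 1 to 1, and lower 5 to 9 and 5 to 7. The outer values for genes called lower came without doxorubicin replicate 4 (9 variants and 1 replication-dependent gene); without doxorubicin replicates 3 and 4, chosen after seeing the data, they were 10 and 1. Fitting only the 2 groups compared gave 1 variant higher in doxorubicin against PBS and, for both compounds against histidine, 3 higher and 11 lower; limma on log2(FPKM + 1) and log2(FPKM + 0.1) gave 3 and 2 higher there. The sum of FPKM in place of CPM gave ratios of 2.10 and 2.19 for replication-dependent genes and 0.903 for variants (both compounds against histidine); the cause of these shifts was not tested. Of 592 refits of the 16 named genes, 585 kept their side of the threshold. Direction was not kept in all of these. Without doxorubicin replicate 4, H3f3a and the H3.3 entry ENSRNOG00000032401 turned below 0 in doxorubicin against PBS, and neither passed the test. Of the other refits, 1 lost the call (H3f3b in doxorubicin against PBS, edgeR on only the 2 groups, adjusted p 0.0896). A further 5 gained it, all H3.3 entries in both compounds against histidine. The remaining 1 was counted as reversed (the H3.3 entry ENSRNOG00000032401, log2 fold change -0.15, without doxorubicin replicates 3 and 4).

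The replicate numbers did not meet the criterion for pairing, a correlation over 0.1 in every pair: over 30 pairs with the same number the deviations from group means correlated at -0.12 to 0.21, with 6 of 30 over 0.1. Of those, 4 were among the 6 pairs of replicate 3, which all lay above 0 (0.0686 to 0.21), so libraries numbered 3 deviated together to some extent. With a replicate block the counts were 29 higher and 0 lower replication-dependent genes and 2 higher and 5 lower variants in doxorubicin against PBS, and 28 and 0, 1 and 7 in both compounds against histidine. The block changed no histone call count in the other contrasts, which stayed at 0. Genes under 1 FPKM (8 replication-dependent, 1 variant) limit what the depth can show.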
